A study of Homo sapiens with 4 samples.

Results

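The BCL2 family of apoptosis regulators was described across 4 RNA-seq libraries of K562 cells. The 10 members were the genes of the deposited count table with the symbol BCL2, BCL2L1, MCL1, BAX, BAK1, BCL2L11, BBC3, PMAIP1, BAD or BID, and each symbol matched 1 gene, so 10 of the 35606 genes listed were members. K562 is an established leukaemia line with the BCR-ABL1 fusion and erythroid features. Of the 4 libraries, 2 came from cells labelled JAZF1-SUZ12 (called fusion libraries here) and 2 from cells labelled mock. JAZF1-SUZ12 is a fusion protein found in endometrial stromal sarcoma, in which a part of JAZF1 replaces the start of the Polycomb subunit SUZ12. The vector, the number of clones, and whether libraries of 1 group came from separate cultures are not given in the sources used here, so p-values measure only the spread between these libraries, which may be technical.

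The BCL2 family decides whether the outer mitochondrial membrane is opened in intrinsic apoptosis. Pro-survival proteins (BCL2, BCL-XL from BCL2L1, and MCL1) restrain the effectors BAX and BAK, which form pores when freed and release cytochrome c, the trigger of caspase activation. BH3-only proteins (BIM from BCL2L11, PUMA from BBC3, NOXA from PMAIP1, BAD and BID) sense stress and either occupy the pro-survival proteins or activate the effectors. In cells with BCR-ABL1, STAT5 signalling is known to raise BCL-XL and MCL1, and BIM is known to be held down.

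The libraries held between 17261160 and 24423239 estimated counts. JAZF1, at 0.591 and 1.28 CPM in mock and 33.3 and 29.5 CPM in the fusion libraries, and SUZ12, at 137 and 133 against 276 and 265 CPM, followed the labels. CPM is the estimated count of a gene scaled to the TMM-adjusted total of its library, in the usual CPM unit. The source label gives uterus, whereas 13 of 13 erythroid markers had at least 10 counts in every library. Their summed level was 11724 to 12037 CPM in mock and 13461 to 13824 CPM in the fusion libraries. Stromal markers summed to 16.4 to 17.4 CPM in mock and 33.9 to 35.4 CPM in the fusion libraries, with LUM at 0 in every library; COL1A1, the highest of them, was at 5.22 and 6.45 CPM in mock and 21.5 and 21.01 CPM in the fusion libraries and made most of that difference. Myeloid markers summed to 32.5 to 37.0 against 23.7 to 24.7 CPM, lymphoid markers to 5.26 to 5.71 against 4.24 to 6.33 CPM with MS4A1 and CD2 at 0, and megakaryocyte markers to 47.0 to 49.4 against 50.002 to 50.04 CPM with GP9, PF4 and PPBP at 0. In bulk RNA, fewer cells of a type and less RNA per cell cannot be told apart, and the part of these markers in the results below was not tested.

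All 10 members had enough counts to be tested, and 4 passed an adjusted p of 0.05, the threshold used throughout (edgeR's quasi-likelihood test, adjusted over all 14750 genes tested). Over all genes tested the same threshold called 24.7%, with 13.3% higher and 11.4% lower in the fusion libraries. BCL2 and BBC3 rose, and MCL1 and BAK1 fell, so each direction held 1 gene that promotes survival and 1 that promotes death. The median log2 fold change of the 10 members was -0.0020, against 0.0032 over all genes tested. Groups did not overlap for 8 of the 10 members, and for 61.3% of all genes tested.

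The number of members called depended on the test and on single libraries. DESeq2 called 3, against 16.3% of all genes. Without fusion replicate 1, fusion replicate 2, mock replicate 1 and mock replicate 2, edgeR called 4, 3, 2 and 3 members, against 25.3%, 17.5%, 16.6% and 18.6% of all genes. The count was 4 with DESeq2's size factors (25% of all genes), total counts (23.2%), limma-voom (25.3%), no filter (17.8%), a mean of at least 50 counts (26.3%), unrounded counts (24.7%) and the replicate number as a block (27.5%). At a threshold of 0.01 it was 3, against 13.9% of all genes.

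**Figure D1:**
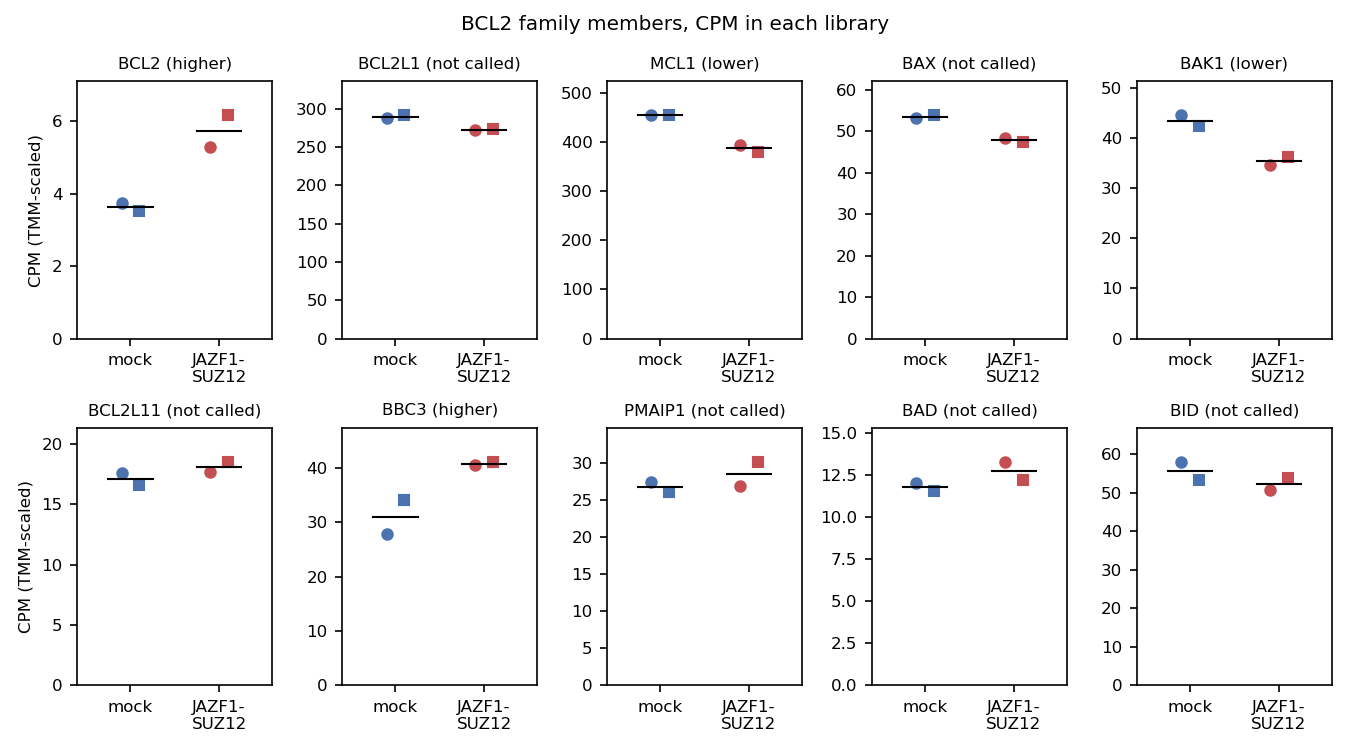
TMM-scaled CPM of each member (vertical axes start at 0) in the 2 mock and 2 JAZF1-SUZ12 libraries, with a bar for the group mean; each panel gives the edgeR call. BCL2 and BBC3 lie higher and MCL1 and BAK1 lower in JAZF1-SUZ12 libraries without overlap, whereas the libraries of PMAIP1 and BID overlap.

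Among the pro-survival members, MCL1 fell, BCL2 rose and BCL2L1 was not called. MCL1, a short-lived protein that sequesters BAK and BIM (ENSG00000143384; GRCh38 chromosome 1, 150574551 to 150579738, minus strand), was at 455.7 and 454.9 CPM in mock and at 395 and 381 CPM in the fusion libraries. Both fusion libraries lay below both mock libraries, by more than the spread within either group. The fold was 0.852 (95% interval 0.800 to 0.907), a log2 fold change of -0.23 (standard error 0.04; edgeR, adjusted p = 0.000922). MCL1 was called in 4 of 4 fits that each left out 1 library and in all 8 alternative fits on all libraries, where its log2 fold change lay between -0.24 and -0.21.

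BCL2, the founding member, which guards the mitochondrial membrane (ENSG00000171791; chromosome 18, 63123346 to 63320128, minus strand), had 76 and 74 counts in mock and 91 and 153 in the fusion libraries. Scaled, it was at 3.74 and 3.51 CPM in mock and at 5.28 and 6.17 CPM in the fusion libraries. The groups did not overlap, and the fusion libraries lay farther apart than the mock libraries. The fold was 1.59 (95% interval 1.16 to 2.17; edgeR, adjusted p = 0.0312). The call was lost with DESeq2 (adjusted p = 0.133) and in 3 of the 4 fits without 1 library: the edgeR adjusted p was 0.219 without fusion replicate 2, 0.0711 without mock replicate 1 and 0.0996 without mock replicate 2.

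BCL2L1, whose long isoform BCL-XL is a survival factor of erythroid cells (ENSG00000171552; chromosome 20, 31664452 to 31723989, minus strand), was at 288 and 292 CPM in mock and at 272 and 273 CPM in the fusion libraries. The groups did not overlap, but the difference did not pass the test (fold 0.941, 95% interval 0.882 to 1.003; edgeR, adjusted p = 0.161). Counts per gene do not separate the long, pro-survival isoforms of BCL2L1 and MCL1 from their short, pro-death ones.

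Both effectors had lower values in the fusion libraries, and 1 of them passed the test. BAK1, which encodes the effector that resides on mitochondria (ENSG00000030110; chromosome 6, 33572547 to 33580293, minus strand), was at 44.5 and 42.2 CPM in mock and at 34.6 and 36.2 CPM in the fusion libraries. The lower mock library was above the higher fusion library. The fold was 0.817 (95% interval 0.736 to 0.907), a log2 fold change of -0.29 (standard error 0.07; edgeR, adjusted p = 0.00694). Without mock replicate 1 the adjusted p was 0.0620 (edgeR). BAX, which encodes the effector that moves from the cytosol to mitochondria (ENSG00000087088; chromosome 19, 48954815 to 48961798, plus strand), was at 53.2 and 53.9 CPM in mock and at 48.4 and 47.5 CPM in the fusion libraries. The groups did not overlap, but BAX did not pass after adjustment (fold 0.895, 95% interval 0.815 to 0.982; edgeR, adjusted p = 0.0778), nor in any of the 8 alternative fits on all libraries.

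Of the 5 BH3-only members, BBC3 rose and the other 4 were not called. BBC3 encodes PUMA, which binds all the main pro-survival proteins (ENSG00000105327; chromosome 19, 47220822 to 47232766, minus strand). It had 565 and 718 counts in mock and 697 and 1022 in the fusion libraries, or 27.8 and 34.0 CPM in mock and 40.5 and 41.2 CPM in the fusion libraries. The fusion libraries lay close together and the mock libraries farther apart, without overlap. The fold was 1.32 (95% interval 1.16 to 1.501), a log2 fold change of 0.40 (standard error 0.09; edgeR, adjusted p = 0.00322). Its size depended on the mock library used: the log2 fold change was 0.27 without mock replicate 1 (adjusted p = 0.0455) and 0.56 without mock replicate 2 (adjusted p = 0.000215; edgeR).

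BCL2L11 encodes BIM, an activator of BAX and BAK (ENSG00000153094; chromosome 2, 111119378 to 111168447, plus strand). It was at 17.6 and 16.6 CPM in mock and at 17.7 and 18.5 CPM in the fusion libraries (fold 1.06, 95% interval 0.909 to 1.24; edgeR, adjusted p = 0.610). The nearest libraries of the groups differed by less than the spread within a group. PMAIP1, which encodes NOXA, a selective partner of MCL1 (ENSG00000141682; chromosome 18, 59899948 to 59904306, plus strand), was at 27.5 and 26.0 CPM in mock and at 26.8 and 30.2 CPM in the fusion libraries, with overlap (fold 1.07, 95% interval 0.942 to 1.22; edgeR, adjusted p = 0.454).

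BAD, whose protein binds BCL-XL and BCL2 unless it is phosphorylated (ENSG00000002330; chromosome 11, 64269830 to 64284704, minus strand), was at 12.0 and 11.5 CPM in mock and at 13.3 and 12.2 CPM in the fusion libraries (fold 1.08, 95% interval 0.895 to 1.302; edgeR, adjusted p = 0.581). BID, whose protein caspase-8 cleaves to link death receptors to mitochondria (ENSG00000015475; chromosome 22, 17734138 to 17774770, minus strand), was at 58.1 and 53.2 CPM in mock and at 50.6 and 53.8 CPM in the fusion libraries, with overlap (fold 0.941, 95% interval 0.852 to 1.04; edgeR, adjusted p = 0.381). The intervals of BCL2L11, PMAIP1, BAD and BID include both rises and falls.

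By role, 2 of the 3 pro-survival members were called (24.7% of all genes), 1 higher and 1 lower, with a median log2 fold change of -0.088. Of the 7 pro-death members (effectors and BH3-only), 2 were called, 1 higher and 1 lower, with a median of 0.084. The pro-death median was 0.049 without fusion replicate 1, 0.0044 without fusion replicate 2, 0.13 without mock replicate 1 and 0.050 without mock replicate 2. The medians of the 2 roles are the values of BCL2L1 and BCL2L11, which were not called. Over all genes tested the median was 0.0032 with quartiles of -0.14 and 0.25, and both role medians lie between these quartiles. The difference between the roles was not tested.

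**Figure D2:**
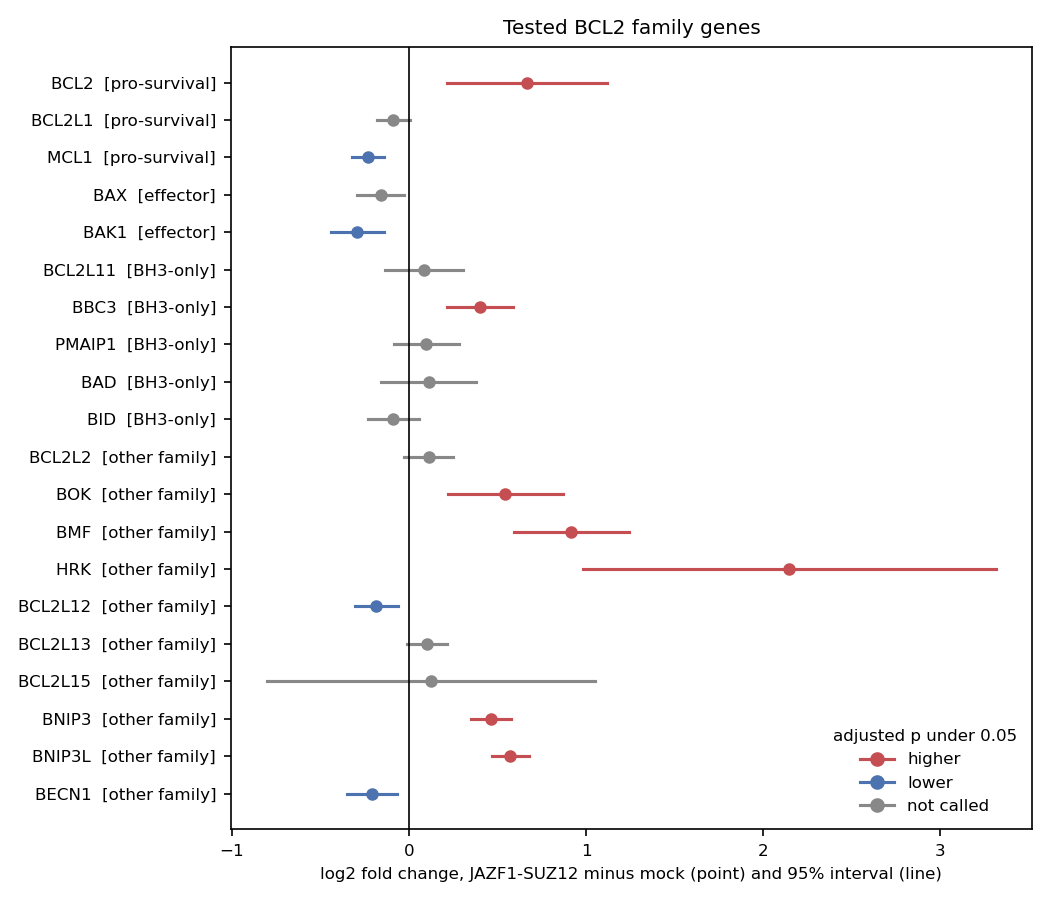
Log2 fold change of JAZF1-SUZ12 over mock for the 20 tested BCL2 family genes (horizontal axis), with points for the edgeR estimate, lines for its 95% interval and colours for the call. Called members lie on both sides of 0 among pro-survival and pro-death genes. HRK, which passed the filter only through the JAZF1-SUZ12 libraries, lies farthest to the right at 2.15.

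Levels were compared between genes per length, as CPM divided by the kilobases of the longest annotated transcript (RPKM). In mock, MCL1 was at 116 ± 0.145 RPKM and BCL2L1 at 111 ± 1.10 RPKM (SD, n = 2 for each value in this paragraph). BAX followed at 39.4 ± 0.394 RPKM, BID at 22.3 ± 1.37, BAK1 at 19.6 ± 0.730 and BBC3 at 16.8 ± 2.39 RPKM. PMAIP1 was at 13.7 ± 0.528 RPKM, BAD at 10.2 ± 0.304, BCL2L11 at 3.27 ± 0.127 and BCL2 at 0.486 ± 0.0223 RPKM. No neighbours in this order overlapped in the mock libraries. BCL2 was the scarcest member. MCL1 and BCL2L1 together held between 99.59% and 99.79% of the RPKM summed over the 3 pro-survival members in each library. That sum leaves out BCL2L2, a pro-survival gene outside the members, at 12.6 ± 0.198 RPKM in mock and 13.6 ± 0.275 RPKM in the fusion libraries. In the fusion libraries BCL2L1 stood first at 104 ± 0.232 RPKM and MCL1 next at 98.7 ± 2.49 RPKM. BBC3, at 22.2 ± 0.281 RPKM, stood above BID at 20.9 ± 0.903 and BAK1 at 16.0 ± 0.516 RPKM. The ratio of MCL1 to BCL2L1 RPKM was 1.05 and 1.03 in mock and 0.963 and 0.927 in the fusion libraries. The order depended on the length used: with the median length of coding transcripts, BCL2L1 was at 317 RPKM in mock and 298 RPKM in the fusion libraries, above MCL1 at 126 and 107 RPKM.

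**Figure D3:**
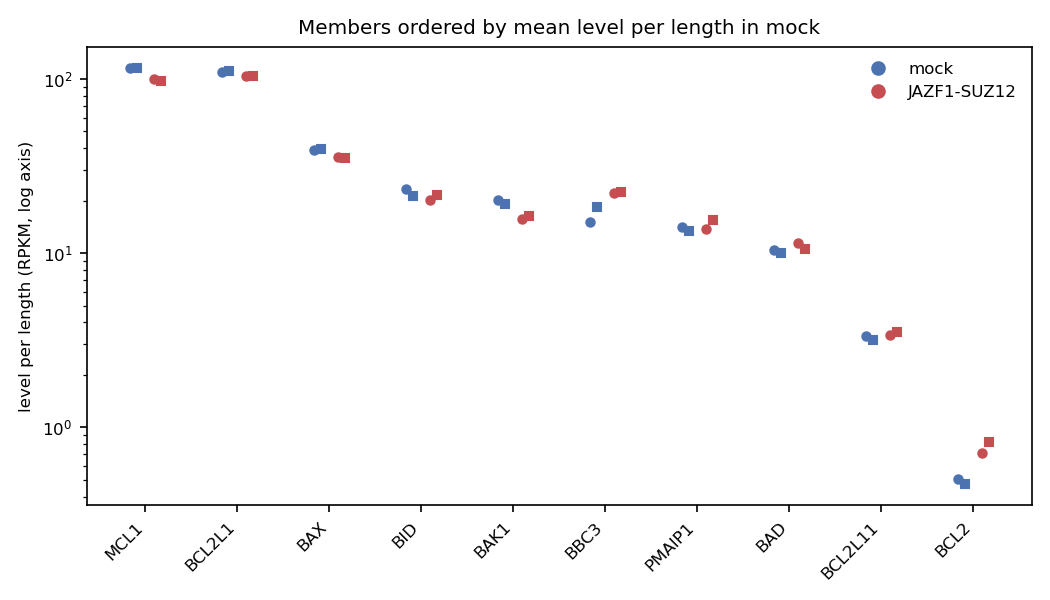
Level per length (RPKM, log axis) of each member in each of the 2 mock and 2 JAZF1-SUZ12 libraries. MCL1 and BCL2L1 stand between 96.9 and 115.9 RPKM, and BCL2 between 0.470 and 0.827 RPKM.

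The 3 pro-survival members held 64.3% and 64.6% of the summed RPKM of the 10 members in mock and 62.7% and 61.8% in the fusion libraries. With the median coding length these shares were 67.3% and 67.6% against 66.4% and 66.02%. The groups did not overlap with either length. The summed pro-survival RPKM was 227 and 228 in mock and 205 and 202 in the fusion libraries, whereas the summed pro-death RPKM was 125.6 and 125.2 against 122 and 124.9. These sums are descriptions of transcripts, and MCL1 and BCL2L1 dominate the pro-survival sum.

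A further 14 genes named with the family were examined, of which 10 were tested, 5 rose and 2 fell (13.3% and 11.4% of all genes), with a median log2 fold change of 0.29. With a mean of at least 50 counts HRK was not tested, and of 8 tested genes 4 rose and 1 fell (26.3% of all genes were called). BMF, a BH3-only gene whose protein can be held at the cytoskeleton (chromosome 15, 40087890 to 40108892, minus strand), had 140.0 and 127 counts in mock and 201 and 314 in the fusion libraries. Its level was 6.90 and 6.02 CPM against 11.7 and 12.7 CPM, without overlap (fold 1.89, 95% interval 1.51 to 2.36; edgeR, adjusted p = 0.000408). HRK, a BH3-only gene best known in neurons (chromosome 12, 116856144 to 116881441, minus strand), had 6.01 and 6.24 estimated counts in mock and 22.0 and 33.1 in the fusion libraries. HRK was too low in mock for the filter and entered the test only through the fusion libraries, where it was high. Its fold of 4.43 had a wide interval (95%, 1.98 to 9.94; edgeR, adjusted p = 0.00924), and it was not called without fusion replicate 2 (adjusted p = 0.0694).

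BNIP3 and BNIP3L, which encode receptors for mitophagy on the outer mitochondrial membrane, also rose. BNIP3L, known for clearing mitochondria from maturing red cells, had 135 ± 0.213 CPM in mock against 201 ± 5.35 CPM in the fusion libraries (SD, n = 2; fold 1.49, 95% interval 1.38 to 1.598; edgeR, adjusted p = 4.46e-07). BNIP3 was at 122 and 131 CPM in mock and at 174 and 175 CPM in the fusion libraries (fold 1.38, 95% interval 1.28 to 1.49; edgeR, adjusted p = 9.79e-06). The summed erythroid markers were higher in the same libraries (13461 to 13824 against 11724 to 12037 CPM), and their part in these rises was not tested.

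BOK, which encodes an effector-like protein, rose from 7.17 ± 0.251 in mock to 10.5 ± 0.928 CPM (SD, n = 2; edgeR, adjusted p = 0.0164). BCL2L12 fell from 95.5 ± 2.75 to 84.1 ± 2.18 CPM (SD, n = 2; edgeR, adjusted p = 0.0255). BECN1, the autophagy regulator that BCL2 binds, fell from 50.4 ± 0.882 to 43.6 ± 1.67 CPM (SD, n = 2; edgeR, adjusted p = 0.0322). None of these 3 was called with DESeq2 (adjusted p = 0.0784 for BOK, 0.0756 for BCL2L12 and 0.151 for BECN1). In fits without 1 library, BOK was lost without fusion replicate 1 or mock replicate 1, BCL2L12 without fusion replicate 2 or mock replicate 1, and BECN1 without any library but fusion replicate 2 (edgeR, adjusted p between 0.0671 and 0.163 where lost). Adjusted p-values (edgeR) were 0.232 for BCL2L2, which encodes the pro-survival BCL-W, 0.181 for BCL2L13 and 0.870 for BCL2L15, so none was called. The 4 genes not tested were BCL2A1 with at most 2 counts, BCL2L10 with 0 in every library, BIK with at most 7 and BCL2L14 with at most 9.51. With a mean of at least 50 counts, which leaves out HRK, 6 of 18 tested family genes rose and 3 fell (26.3% of all genes were called). The main fit called 24.7% of all genes, 13.3% higher and 11.4% lower. Of all 24 family genes, it tested 20 and called 11 (HRK included), 7 higher and 4 lower, with a median of 0.11. DESeq2 called 7 of them (16.3% of all genes), and edgeR without mock replicate 1 called 6 (16.6% of all genes).

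Of 15 transcription factors known to act on family genes, 4 rose and 1 fell (24.7% of all genes were called), with a median log2 fold change of -0.060. FOXO3, known to activate BCL2L11 and BBC3, was at 37.2 and 38.6 CPM in mock and at 54.9 and 56.5 CPM in the fusion libraries (log2 fold change 0.56; edgeR, adjusted p = 1.65e-05). STAT5A, known to act on BCL2L1 and MCL1, was at 632 and 647 CPM in mock and at 465 and 451 CPM in the fusion libraries (log2 fold change -0.48; edgeR, adjusted p = 4.94e-07). Neither FOXO3 nor STAT5A overlapped between groups. JUN, a subunit of AP-1, TP73 and FOXO4 rose by 0.44, 0.54 and 0.23 on the log2 scale (edgeR, adjusted p = 0.00539, 0.00623 and 0.0379). JUN and TP73 were not called without mock replicate 1 (edgeR, adjusted p = 0.0623 and 0.0798). FOXO4 was not called with DESeq2 (adjusted p = 0.170), nor by edgeR without fusion replicate 1 (adjusted p = 0.150) or mock replicate 2 (adjusted p = 0.226).

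The bases before the annotated start are shown for BBC3 and BAK1, which were called, and for BCL2L11, a textbook FOXO3 target that was not. RefSeq windows on GRCh38.p14 matched 9 of the 10 members, in 15 windows, and MCL1 was not matched. Each sequence is the 250 bases before a start, 5′ to 3′ on the gene's strand: chr19:47232668-47232917 (minus strand) for BBC3, chr6:33580277-33580526 (minus strand) for BAK1 and chr2:111120664-111120913 (plus strand) for BCL2L11. Capitals mark every match, on either strand, to 7 motifs: GTAAACA for FOXO factors, TTCNNNGAA for STAT factors, AGATAA for erythroid GATA factors, TGANTCA for AP-1, CACGTG for the E-box, TGACGTCA for the cyclic AMP element (CRE) and GGGCGG for the GC box.
BBC3: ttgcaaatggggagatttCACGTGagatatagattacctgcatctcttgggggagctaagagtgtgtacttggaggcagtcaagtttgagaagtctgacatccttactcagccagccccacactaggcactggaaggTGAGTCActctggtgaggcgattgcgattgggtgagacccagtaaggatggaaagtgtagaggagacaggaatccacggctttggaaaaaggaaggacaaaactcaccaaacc
BAK1: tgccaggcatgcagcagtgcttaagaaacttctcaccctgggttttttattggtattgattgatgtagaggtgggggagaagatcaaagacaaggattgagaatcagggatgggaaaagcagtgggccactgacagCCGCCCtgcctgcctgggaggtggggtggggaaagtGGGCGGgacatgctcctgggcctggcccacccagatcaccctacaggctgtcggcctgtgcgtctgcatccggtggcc
BCL2L11: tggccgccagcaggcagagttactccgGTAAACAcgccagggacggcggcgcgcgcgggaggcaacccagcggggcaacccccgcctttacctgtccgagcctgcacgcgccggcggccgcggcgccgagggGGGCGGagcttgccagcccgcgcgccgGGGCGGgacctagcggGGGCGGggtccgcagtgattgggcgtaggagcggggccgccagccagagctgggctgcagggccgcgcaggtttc
BCL2L11 held a FOXO match beginning 223 bases before this RefSeq start, and 3 GC boxes. By the gene positions given above, which are from GENCODE, this whole window lies inside the gene. Parts of the BBC3 and BAK1 windows lie inside their genes too. The FOXO letters were found in 2.98% of all 35116 windows of this length and in no window of another matched member. BBC3 held an AP-1 match 113 bases and an E-box 232 bases before the start, motifs found in 6.57% and 6.34% of all windows. BAK1 held 2 GC boxes, a motif of 42.6% of all windows. The window of BCL2, which was also called and is not shown, held no match to any of the 7 motifs. The BAX window held 4 E-boxes, and windows of BID held E-boxes too, and neither gene was called. The STAT letters, in 6.57% of all windows, were in no window of the 9 members, which says only that they are not in these bases. GATA and CRE letters, in 9.17% and 1.65% of all windows, were likewise in none of them. A match is a run of letters, and no binding was measured.

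In a list of 21 genes of the caspase pathway and of mitochondrial proteins, 8 fell and 0 rose, against 11.4% of all genes called lower. The median log2 fold change was -0.12. ENDOG, a mitochondrial nuclease, fell from 55.6 ± 0.510 in mock to 44.9 ± 0.0390 CPM (SD, n = 2; edgeR, adjusted p = 0.00213). DFFA, the inhibitor of the apoptotic DNase, fell from 88.2 ± 1.12 to 74.5 ± 3.91 CPM (SD, n = 2; edgeR, adjusted p = 0.00640). CASP9, the initiator caspase of the apoptosome, fell from 38.3 ± 0.0440 to 31.7 ± 1.51 CPM (SD, n = 2; edgeR, adjusted p = 0.0134). CASP2 and AIFM1, a mitochondrial flavoprotein, had log2 fold changes of -0.20 and -0.16 (edgeR, adjusted p = 0.0365 and 0.0352). The genes that fell thus include caspases and also DFFA, which restrains a death nuclease. The count was not stable: DESeq2 called 3 lower, against 7.13% of all genes. Without fusion replicate 1, edgeR called 5 lower (25.3% of all genes called in either direction), without fusion replicate 2 it called 3 lower and 1 higher (17.5%), and without mock replicate 1 or mock replicate 2 it called 3 lower each (16.6% and 18.6%). CASP9, CASP2 and AIFM1 were not called with DESeq2 (adjusted p = 0.0845, 0.112 and 0.0871). CASP9 was called only without fusion replicate 2 among the edgeR fits without 1 library, AIFM1 only without fusion replicate 1, CASP2 not without fusion replicate 1 or mock replicate 2, and DFFA not without fusion replicate 2. CASP2 and AIFM1 were also lost with total counts (edgeR, adjusted p = 0.0689 and 0.0542).

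**Figure D4:**
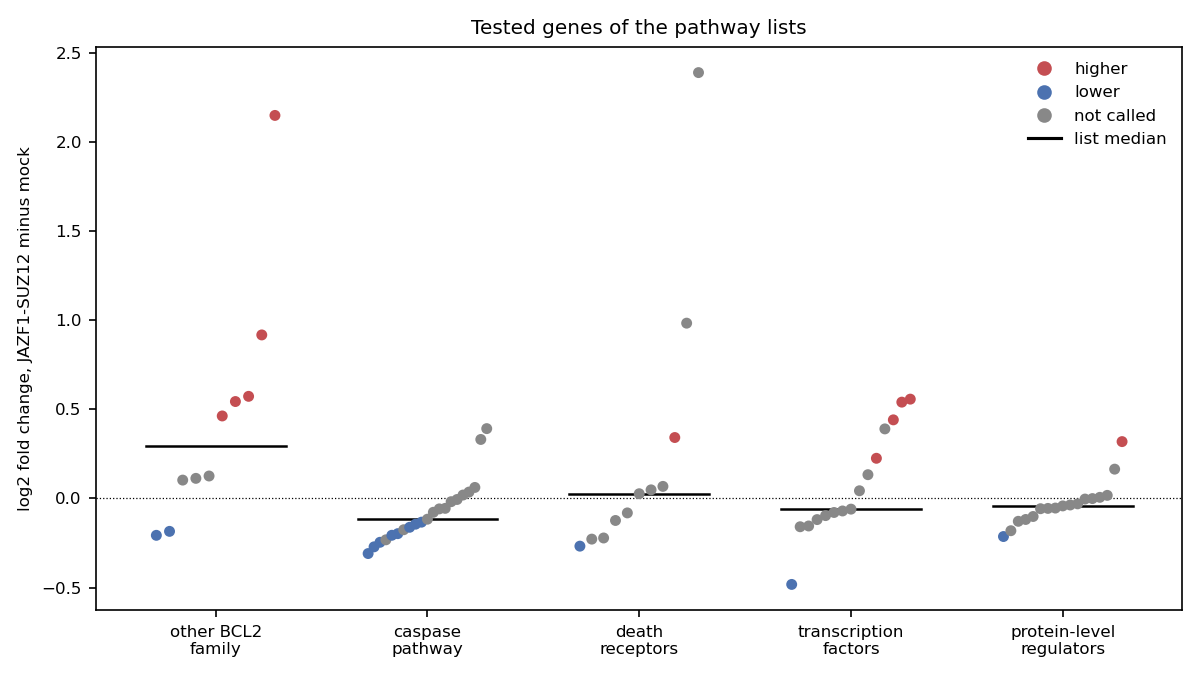
Log2 fold change of JAZF1-SUZ12 over mock (vertical axis) for every tested gene of the further lists, coloured by call, with a bar at each list's median. The caspase list holds called genes below 0 and none above.

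Of 14 death receptor genes, 11 were tested, and their log2 fold changes had a median of 0.026. TNFRSF10B, the TRAIL receptor DR5, rose from 37.8 ± 0.858 in mock to 47.9 ± 1.68 CPM (SD, n = 2; edgeR, adjusted p = 0.00180). RIPK1, a kinase of the receptor complexes, fell from 54.8 ± 4.11 to 45.6 ± 1.53 CPM (SD, n = 2; edgeR, adjusted p = 0.0109). RIPK1 was not called without fusion replicate 2 or mock replicate 1 (edgeR, adjusted p = 0.0536 and 0.138). The number called in this list, 2 against 24.7% of all genes, changed with the library left out. It was 5 with the replicate number as a block (27.5% of all genes).

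Of 17 genes whose products modify or hold the member proteins, 1 rose and 1 fell (24.7% of all genes were called), with a median log2 fold change of -0.042. PIM1, a kinase that phosphorylates BAD, was at 418 and 421 CPM in mock and at 506 and 540.1 CPM in the fusion libraries (log2 fold change 0.32; edgeR, adjusted p = 8.12e-05). PIM2, a related kinase, fell from 184 ± 1.54 to 159 ± 7.27 CPM (SD, n = 2; edgeR, adjusted p = 0.00555). Of genes that set the turnover of MCL1 protein, HUWE1, FBXW7, BTRC, MARCHF5 and USP9X were not called. Their edgeR adjusted p-values ran from 0.303 for BTRC to 0.971 for MARCHF5. GSK3B, a kinase of the same list, was lower in the fusion libraries without overlap but not called (log2 fold change -0.18; edgeR, adjusted p = 0.0593). These genes were named after their values were seen.

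The authors' deposited table gave the same direction as the edgeR fit for 10 of the 10 members and called 1 of them, against 8.5% of the genes with an adjusted p there. In the authors' deposited table, MCL1 had a log2 fold change of -0.30 (adjusted p = 2.19e-05). For BBC3, BAK1 and BCL2 the authors' deposited table gave log2 fold changes of 0.37, -0.31 and 0.32, none of them called (adjusted p = 0.155, 0.178 and 0.802). The BCL2 value in the authors' deposited table was thus less than that from the counts (0.67). Standard errors of the members in the authors' deposited table were 1.37 to 2.19 times those of the edgeR fit, and the cause was not tested.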

How the data were processed

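Poly(A)-selected, directional RNA-seq libraries of K562 cells were used, 2 labelled JAZF1-SUZ12 and 2 labelled mock, grouped by title. The authors deposited estimated counts per gene as raw counts, of which between 29.2% and 32.8% per library differ from a whole number by more than 0.001. The submitters' processing notes name fastp 0.20.1, FastQC 0.11.7, MultiQC 1.5, kallisto 0.46.2, DESeq2 1.30.1 and the build hg38, without roles. The authors' deposited comparison table gives, per the file headers, a mean signal of depth-normalized counts, a log2 fold change with its standard error, a score that is their quotient, and a p-value with an adjusted p-value. Whether counting used strand is not given in the sources used here.

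Counts were rounded, filtered with filterByExpr (14750 of 35606 genes kept), scaled with TMM and tested with edgeR 4.0.16 (R 4.3.3; quasi-likelihood F test, group as the only term, two-sided, Benjamini-Hochberg over all genes tested). The standard error is the log2 fold change divided by the square root of F, and 95% intervals use the test's degrees of freedom. Positions and lengths are those of GENCODE 29 on GRCh38, which held 35410 of the gene IDs and need not be the authors' annotation. The test and the motif search were tested on simulated data. Among 200 genes changed by a simulated fold of 1.25, edgeR called 133 and DESeq2 called 94. At a fold of 2, each called 199 of 200. All changed genes had a mean of at least 200 counts, more than BCL2 had in any library. Alternatives were DESeq2 1.42.0, limma-voom (limma 3.58.1), other scalings and filters, unrounded counts, the replicate number as a block, a threshold of 0.01, another length and leaving out each library.

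The members and lists were chosen with earlier results of these data known. Text names JAZF1, SUZ12, the 10 members, all tested family genes and up to 6 called genes of each other list; some genes are not reported here. Replicates differed by more than sampling noise (chi-square per degree of freedom 3.86 in JAZF1-SUZ12 and 3.61 in mock). 2 libraries per group limit every SD, and counts carry no stated molecular identifiers.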

Additional observations from a re-analysis of the deposited data

How the results depend on the processing

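No called member changed direction under any alternative. With DESeq2, 2407 genes were called in place of 3643 and 1051 lower in place of 1688. The pro-survival members called fell to 1 with DESeq2 (16.3% of all genes) and to 1 at the threshold of 0.01 (13.9%). BCL2 was then lost (log2 fold change 0.66 with DESeq2, adjusted p = 0.133). BAK1, BBC3 and BCL2 stood at log2 fold changes of -0.31, 0.37 and 0.32 in the authors' deposited table, not called. DESeq2 called 7 of 20 tested family genes, 4 of 10 further ones and 3 of 21 genes of the caspase list (16.3% of all genes). Caspase calls were 4 with total counts (23.2% of all genes) and 3 with a mean of at least 50 counts (26.3%). Death receptor calls were 4 of 11 tested with limma-voom (25.3% of all genes) and 5 of 14 tested with no filter (17.8%). The causes were not tested.

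Medians also moved. With total counts and with the mean of at least 50 counts, they were -0.066 and -0.064 for the pro-survival members and -0.20 in both for the effectors. The further family genes had 0.32 with limma-voom, 0.32 with total counts and 0.12 with no filter, which tested 13 of them in place of 10. The death receptor genes had -0.057 with the mean of 50 counts, which tested 9 of them in place of 11. These 2 filters thus gave medians over other sets of genes. The median of the 10 members stayed near 0 with either sign.

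With the median coding transcript length, RPKM in mock and JAZF1-SUZ12 was 317 and 298 for BCL2L1, 126 and 107 for MCL1, 99.2 and 88.8 for BAX, 27.99 and 26.3 for BID, 16.7 and 17.8 for PMAIP1, 20.4 and 22.04 for BAD, 11.2 and 11.9 for BCL2L11 and 0.724 and 1.14 for BCL2; in JAZF1-SUZ12 it was 16.6 for BAK1 and 24.3 for BBC3.

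The share of all genes called without each library is given above beside the number of members called. Fits without 1 library assume that the lone library varies like the other group. They called between 953 and 1863 genes lower (1072 without JAZF1-SUZ12 replicate 2, 953 without mock replicate 1, 1064 without mock replicate 2), 2 to 4 members (2 without mock replicate 1), 1 to 2 pro-survival (1 without JAZF1-SUZ12 replicate 2 or either mock library), 0 to 1 effector and 1 to 2 pro-death (fewest without mock replicate 1), 6 to 9 family genes and 4 to 6 further ones (fewest without mock replicate 1), 3 to 5 caspase, 1 to 5 death receptor, 2 to 4 protein-level (4 without JAZF1-SUZ12 replicate 1) and 3 to 6 transcription factor genes (3 without mock replicate 1). Log2 fold changes were 0.54 to 0.77 for BCL2 and -0.33 to -0.25 for BAK1. BCL2L15 ranged from -0.20 (without mock replicate 2) to 0.56 (without mock replicate 1). Medians ranged from -0.093 to -0.072 for pro-survival members, -0.24 to -0.21 for effectors, 0.30 to 0.46 for further family genes, -0.045 to 0.029 for death receptor genes, -0.078 to -0.021 for protein-level regulators and -0.080 to 0.0055 for transcription factors.

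A fit that took the replicate number as a block called 4061 genes (27.5% of all genes tested) and 5 death receptor genes, and no call of a member changed. Deviations of same-numbered libraries correlated at 0.0038, so no shared shift of same-numbered libraries was visible. Whether such libraries were handled together cannot be told from this value. With 74 and 76 BCL2 counts in mock, its interval is the widest of the members.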
